A study of Mus musculus with 6 samples.

Results

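Kinesins are motor proteins that use ATP to walk along microtubules or to shorten them. The mitotic kinesins build the spindle, align chromosomes and complete cell division, and most of their transcripts accumulate in G2 and mitosis. The transport kinesins carry vesicles, organelles and RNA, mostly toward the cell periphery, and are best known from neurons, while a smaller group works at cilia or sets microtubule length. Embryonic stem (ES) cells divide rapidly and use the mitotic set at every division. The members were chosen by name: every gene whose single symbol on the array is Kif followed by letters or digits. This gave 43 genes of 18193 in all, read by 108 probe sets. The name also takes in Kifap3 and Kifbp, a pair of kinesin-binding proteins that are not motors. By role the 43 genes are 14 mitotic kinesins, 16 transport kinesins, 8 kinesins of cilia and microtubule length, 3 other kinesins (Kif12, Kif26a and Kif26b) and the 2 accessory proteins.

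The study asked what mouse ES cells express once they lose Dcr, an enzyme needed to make mature miRNAs. Cells of a line with floxed Dcr alleles, grown on gelatin with serum and LIF, received GFP together with Cre recombinase (Dcr KO) or GFP by itself (Dcr WT), and RNA was taken on day 5. Each group had 3 arrays, which the methods call biological triplicates, and the Dcr KO cells were a mixed population rather than a clone. The study describes them by day 5 as mostly, not wholly, Dcr null, with most but not all miRNAs lost. Both groups carry the floxed alleles and both received GFP, and no group received Cre without a floxed allele, so the deletion and Cre itself cannot be told apart.

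Values are log2 expression, and each gene was given the mean over its probe sets. A gene was tested where this mean over all 6 arrays was at least 4, which 26 of the 43 kinesins and 8782 of the 18193 genes reached. Differences are Dcr KO minus Dcr WT with the SE of the fit, tested with limma and called at a Benjamini-Hochberg adjusted p of 0.05 over all 8782 genes. An array cannot rank one gene's level against another's, so results compare levels only between groups for the same gene or probe set. Mean level otherwise served to set the minimum, to pick the brightest probe set of a gene and to choose which genes to name. RNA came from whole cultures, where fewer cells of a type and less RNA per cell cannot be told apart.

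Dicer1, the array's name for Dcr, was read first as a check of the labels. Its log2 level was 6.33, 6.59 and 5.92 on the Dcr KO arrays and 7.78, 7.89 and 7.16 on the Dcr WT arrays, a difference of -1.33 (SE 0.23, adjusted p = 0.0134, limma). The groups did not overlap, and the Dcr KO level was 39.7% of Dcr WT. Over probe sets that reached the minimum level, Pearson's r was 0.983 to 0.995 between Dcr KO arrays, 0.977 to 0.990 between Dcr WT arrays and 0.948 to 0.982 across groups. The 9 pluripotency markers all had a mean of at least 4 and none passed the test (13.3% of all genes did). Their mean log2 level over the list was 10.95 to 10.96 in Dcr KO and 10.77 to 10.96 in Dcr WT. That mean covers differences of both signs. Groups did not overlap for 66.7% of them, against 39.0% of all genes. Pou5f1, Sox2, Zfp42 and Dppa5a were higher (0.38, 0.33, 0.29 and 0.09), and Tdgf1 and Utf1 lower (-0.34 and -0.25). Neural markers averaged 3.82 to 3.88 in Dcr KO and 3.38 to 3.43 in Dcr WT. Of these 7 markers 2 reached a mean of 4, Tubb3, a neuronal tubulin, which rose by 0.73 (adjusted p = 0.0100, limma), and Nes, of neural progenitors, which differed by -0.07 (adjusted p = 0.759). Below that level, Sox1, Pax6, Ncam1 and Map2 had differences of 0.89, 0.58, 0.70 and 0.21 with separate groups, and Dcx, of migrating neurons, had a mean log2 level of 1.53 in Dcr KO and 1.41 in Dcr WT with overlapping groups. Primitive endoderm markers averaged 3.53 to 3.63 in Dcr KO and 3.39 to 3.50 in Dcr WT (2 of 6 reached a mean of 4), and fibroblast markers 3.19 to 3.25 in Dcr KO and 2.96 to 3.36 in Dcr WT (2 of 7). The fibroblast average covers opposite differences below that level. Col3a1 and Postn differed by 1.22 and 0.72, and Col1a2 and Thy1 by -0.71 and -0.62, all with separate groups, while the groups of Fap overlapped. The part of the neural markers in the values of transport kinesins, many of which neurons use, was not tested.

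Dcr WT replicate 2 stood apart on a subset of probe sets. It lay more than 1 log2 unit below each other array on 376 of the 18789 probe sets tested (2.00%), while Dcr KO replicate 3 did so on 56, the next highest number. Among the 60 kinesin probe sets tested it did so on 6 (10%), which read Kif11, Kif20b, Kif2c, Kifc1 and, with 2 probe sets, Kif5b. The gene differences of these 5 genes are therefore given with and without that array.

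Many genes of the G2/M program carry a pair of elements near their start site, a cell cycle homology region (CHR) and an NF-Y box (CCAAT). Because the mitotic kinesins are a classic part of that program, the promoters of kinesins were searched for both, as RefSeq gives them on GRCm38.p6 from 250 bases before to 50 after each start. The CHR was searched as TTTGAA or TTCGAA and the NF-Y box as CCAAT, on both strands, and in the kinesin promoters no match of one overlapped a match of the other. The table matched 35 of the 43 genes with 39 promoters, and Kif13b, Kif20a, Kif21b, Kif28, Kif5a, Kif5b, Kifc2 and Kifc3 were not matched. The last 150 bases of 4 mitotic promoters that hold both motifs, and of 1 of the 2 promoters of the transport kinesin Kif1b, are printed below with the matches in capitals (the runs of 6 capitals are CHR matches and those of 5 are NF-Y boxes, on either strand).
Kif11, chr19:37376282-37376431, plus strand: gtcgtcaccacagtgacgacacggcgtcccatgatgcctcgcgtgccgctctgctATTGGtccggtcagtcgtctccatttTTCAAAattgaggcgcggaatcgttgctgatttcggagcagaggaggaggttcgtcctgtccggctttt
Kif22, chr7:127042371-127042520, minus strand: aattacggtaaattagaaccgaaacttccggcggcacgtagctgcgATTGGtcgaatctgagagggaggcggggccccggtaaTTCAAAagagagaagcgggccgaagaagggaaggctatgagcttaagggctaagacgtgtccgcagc
Kif23, chr9:61946750-61946899, minus strand: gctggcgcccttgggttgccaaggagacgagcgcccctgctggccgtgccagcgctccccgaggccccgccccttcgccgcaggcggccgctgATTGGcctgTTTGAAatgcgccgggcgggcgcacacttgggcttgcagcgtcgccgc
Kif4, chrX:100625965-100626114, plus strand: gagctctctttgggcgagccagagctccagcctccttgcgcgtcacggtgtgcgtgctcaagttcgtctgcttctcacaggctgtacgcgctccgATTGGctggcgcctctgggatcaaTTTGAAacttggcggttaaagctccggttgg
Kif1b, chr4:149307684-149307833, minus strand: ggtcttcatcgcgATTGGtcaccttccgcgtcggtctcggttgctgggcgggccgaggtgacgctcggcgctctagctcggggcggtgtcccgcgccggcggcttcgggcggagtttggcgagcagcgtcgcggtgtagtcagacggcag

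The 4 mitotic promoters each show an NF-Y box followed by a CHR match close to the start site, while the Kif1b promoter has an NF-Y box and no CHR match in these 150 bases. CHR letters occurred in 11 of the 13 promoters of mitotic kinesins (84.6%), in 1 of the 12 of transport kinesins (8.33%) and in 19.2% of all 32851 promoters in the table. NF-Y boxes occurred in 9 of the 13 mitotic promoters (69.2%), 4 of the 12 transport promoters (33.3%) and 37.4% of all promoters. Both motifs were present in 8 mitotic promoters (61.5%), in 0 transport promoters and in 7.52% of all promoters. A CHR match from 20 bases before to 30 after the start stood in 9 of the 13 mitotic promoters (69.2%), against 2.87% of all promoters. That narrower window closely brackets the matches of these same mitotic promoters. The contrast in it therefore describes them and is not independent support. Such matches are letters in a window, and binding was not measured here.

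**Figure D1:**
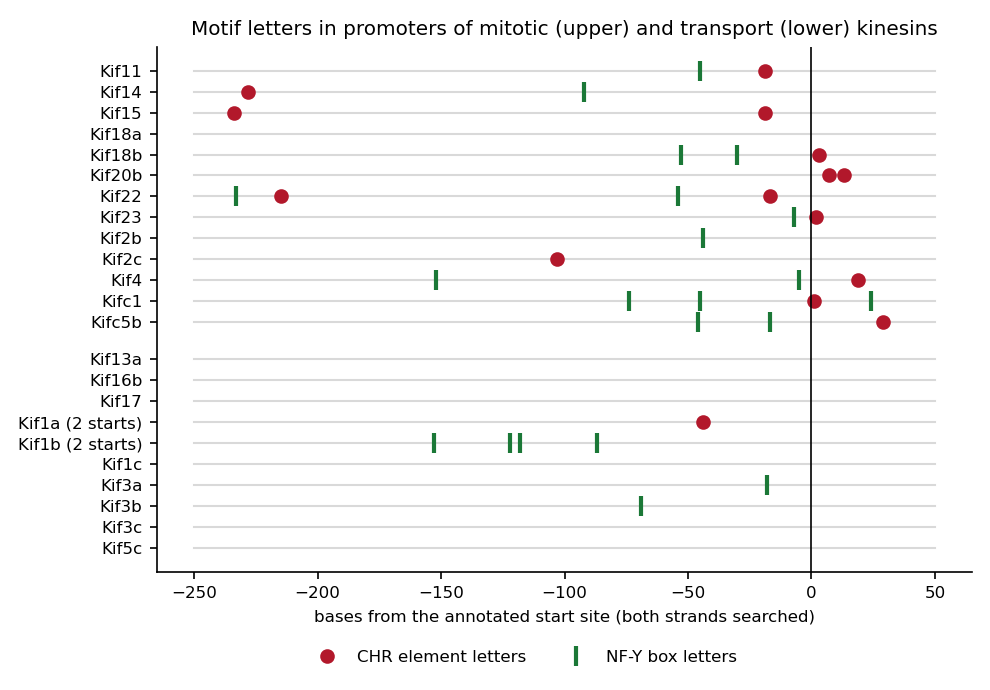
Matches to the CHR (circles; TTTGAA or TTCGAA) and to the NF-Y box (bars; CCAAT) on either strand, by distance in bases from the annotated start site, in the promoters of 13 mitotic kinesins (upper rows) and 10 transport kinesins (lower rows, with Kif1a and Kif1b at 2 starts each). CHR matches fall in 11 of 13 mitotic and 1 of 12 transport promoters, and in 9 mitotic promoters 1 lies within 20 bases before to 30 after the start.

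A second set of sequences is background to a list that the study drew up, of candidate targets of miRNAs whose seed holds AAGUGC. On that list stand 4 kinesins, all of the transport group (Kif1b, Kif16b, Kif3a and Kif5c). The share of all genes on the list was not worked out here, so the count is not read as a result about kinesins. Target sites in these genes were not searched. The members of the mir-290-295 cluster with that seed for which the RefSeq table used here holds a mature sequence, not the whole family, are printed below (GRCm38.p6, chromosome 7, plus strand), with the seed, bases 2 to 8, in capitals.
mmu-miR-290a-3p, chr7:3218674-3218697: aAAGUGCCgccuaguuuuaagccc
mmu-miR-291a-3p, chr7:3218968-3218989: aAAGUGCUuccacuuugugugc
mmu-miR-291b-3p, chr7:3219529-3219550: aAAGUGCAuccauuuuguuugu
mmu-miR-294-3p, chr7:3220691-3220712: aAAGUGCUucccuuuugugugu
mmu-miR-295-3p, chr7:3220815-3220837: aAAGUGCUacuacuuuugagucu
In miR-291a-3p, miR-294-3p and miR-295-3p the seeds are identical (AAGUGCU), and the other seeds printed differ from it in the base at the end. The arrays did not measure these miRNAs.

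Of the 26 kinesins tested, 1 rose and 0 fell in Dcr KO (3.85% called), against 13.3% of all genes tested, of which 6.91% rose and 6.42% fell. At an unadjusted p under 0.05, 5 of the 26 were higher and 1 was lower, and over all genes 32.0% reached that level, 14.7% higher and 17.3% lower. The groups did not overlap for 5 kinesins that were higher and 2 that were lower in Dcr KO (26.9%), while 39.0% of all genes did not overlap, 17.7% higher and 21.2% lower. By direction, 19.2% of the kinesins did not overlap and were higher and 7.69% did not overlap and were lower. The share called and the share without overlap in either direction lay below those of all genes, and the share that was higher without overlap lay near that of all genes. The median difference over the 26 was 0.12, with 18 above 0, and the median size regardless of sign was 0.18. The corresponding values over all genes were -0.02 and 0.21. Differences ran from -0.56 for Kif7 to 0.63 for Kifc3, each of them read by 1 probe set. The gene that rose was Kif1b, a motor of the kinesin-3 family that moves mitochondria and synaptic vesicle precursors.

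**Figure D2:**
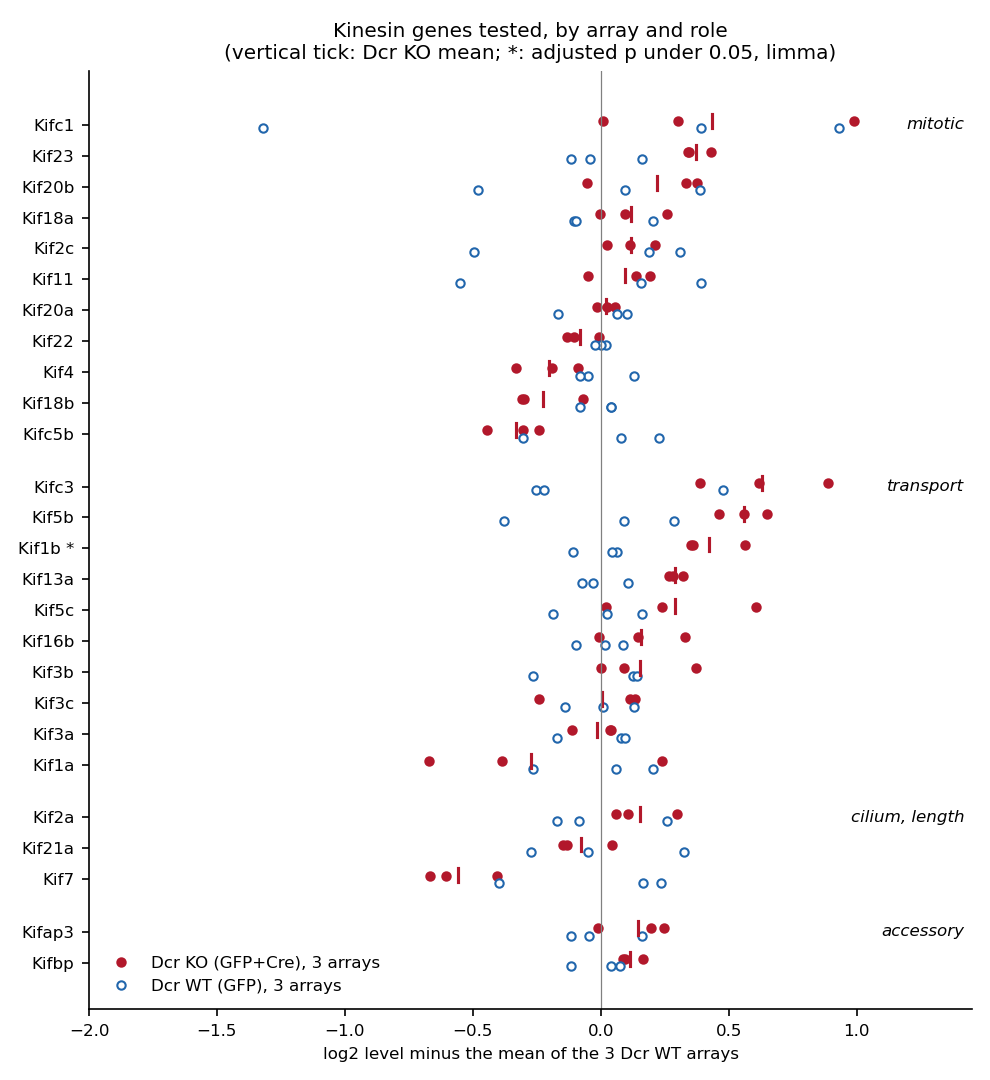
Log2 level of the 26 kinesins tested on each array, minus the mean of the 3 Dcr WT arrays (Dcr KO filled, Dcr WT open, vertical ticks for the Dcr KO mean), ordered within each role by the difference. Kif1b is marked as the gene past an adjusted p of 0.05 (limma), Kif5b, Kif13a, Kif23 and Kifbp also show Dcr KO arrays wholly above Dcr WT, and Kif4 and Kif7 wholly below.

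None of the 11 mitotic kinesins tested passed the test in either direction. Their median difference was 0.09, with 7 above 0 and 4 below. At an unadjusted p under 0.05, 1 was higher (14.7% of all genes) and 0 were lower (17.3% of all genes). The groups did not overlap for Kif23 (higher) and Kif4 (lower), 18.2% of the 11 against 39.0% of all genes. Without Dcr WT replicate 2 the median was -0.13, so the sign of the group's median rested on that array. Kif2b, Kif14 and Kif15 were below the minimum level and were not tested.

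Kif20a, which brings the chromosomal passenger complex to the spindle midzone at anaphase, read 10.90, 10.94 and 10.97 in Dcr KO and 11.02, 10.75 and 10.98 in Dcr WT. The arrays of both groups interleaved, the difference was 0.02 (SE 0.11, 95% interval -0.23 to 0.27, adjusted p = 0.915, limma) and without Dcr WT replicate 2 it was -0.06. Kif22, a chromosome-bound motor that pushes chromosome arms toward the spindle equator, read 10.66, 10.56 and 10.53 in Dcr KO and 10.69, 10.67 and 10.64 in Dcr WT. Its highest Dcr KO array lay within the Dcr WT range, and the difference was -0.08 (SE 0.09, interval -0.30 to 0.13, adjusted p = 0.568, limma).

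Kif11, the motor that slides spindle poles apart, read 9.24, 9.43 and 9.48 in Dcr KO and 9.68, 8.74 and 9.45 in Dcr WT. Its groups overlapped and the difference of 0.09 (SE 0.23, interval -0.43 to 0.62, adjusted p = 0.802, limma) was -0.18 without Dcr WT replicate 2. Kif4, a chromosome-bound motor that limits the length of the midzone, read 8.65, 8.55 and 8.41 in Dcr KO and 8.69, 8.87 and 8.66 in Dcr WT. All Dcr KO arrays lay below all Dcr WT arrays, by 0.01 at the closest, and the difference of -0.20 (SE 0.11, interval -0.46 to 0.05) did not pass (adjusted p = 0.246, limma).

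Kif23, the motor subunit of centralspindlin, which is needed for the midzone and cytokinesis, had the lowest adjusted p of the mitotic group. It read 6.93, 6.93 and 7.02 in Dcr KO and 6.75, 6.47 and 6.55 in Dcr WT, a difference of 0.37 (SE 0.11, adjusted p = 0.0579, limma). The groups did not overlap, and both probe sets tested pointed the same way, with 1453748_a_at at 0.72 (adjusted p = 0.0544 over probe sets) and 1455990_at at 0.25 (adjusted p = 0.185). Kif23 was singled out after its values were seen.

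The largest difference in the mitotic group, 0.43 for Kifc1, rested on 1 array. Kifc1, a minus-end motor that gathers spindle poles, read 7.46, 8.44 and 7.75 in Dcr KO and 7.84, 6.13 and 8.38 in Dcr WT (SE 0.54, interval -0.81 to 1.67, adjusted p = 0.606, limma). Dcr WT replicate 2 was the lowest of the 6 arrays and the other Dcr WT arrays lay among those of Dcr KO, so that without it the difference was -0.23 (adjusted p = 0.647). Kifc5b, a close relative of Kifc1, had a difference of -0.33 (adjusted p = 0.172, limma), and whether the probe sets of either gene read both was not settled here. The remaining mitotic kinesins had overlapping groups. Kif20b, which acts in cytokinesis, differed by 0.22 (adjusted p = 0.534), and by -0.02 without Dcr WT replicate 2. Kif2c, a motor that takes microtubules apart at centromeres, differed by 0.12 (adjusted p = 0.721), and by -0.13 without that array. Kif18a, which dampens chromosome movements, differed by 0.12 and Kif18b, a regulator of astral microtubules, by -0.23.

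Probe sets of the same mitotic gene gave unlike values on Dcr WT replicate 2. For Kif2c, 1454221_a_at read 7.97, 8.31 and 8.81 in Dcr KO and 8.63, 6.39 and 8.61 in Dcr WT. On 1437611_x_at the same gene read 10.41, 10.20 and 10.17 in Dcr KO and 10.22, 10.42 and 10.33 in Dcr WT. One probe set thus put Dcr WT replicate 2 far below the other arrays and the other put it highest of the 6. For Kif20b, 1440924_at read 6.43 to 7.73 in Dcr KO, and 7.33, 4.29 and 7.37 in Dcr WT, whereas on 1439695_a_at Dcr WT replicate 2 read 10.22. For Kif11, 1452315_at read 8.78 to 9.38 in Dcr KO, and 7.46 on Dcr WT replicate 2. What sets these probe sets apart on that array was not tested.

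**Figure D3:**
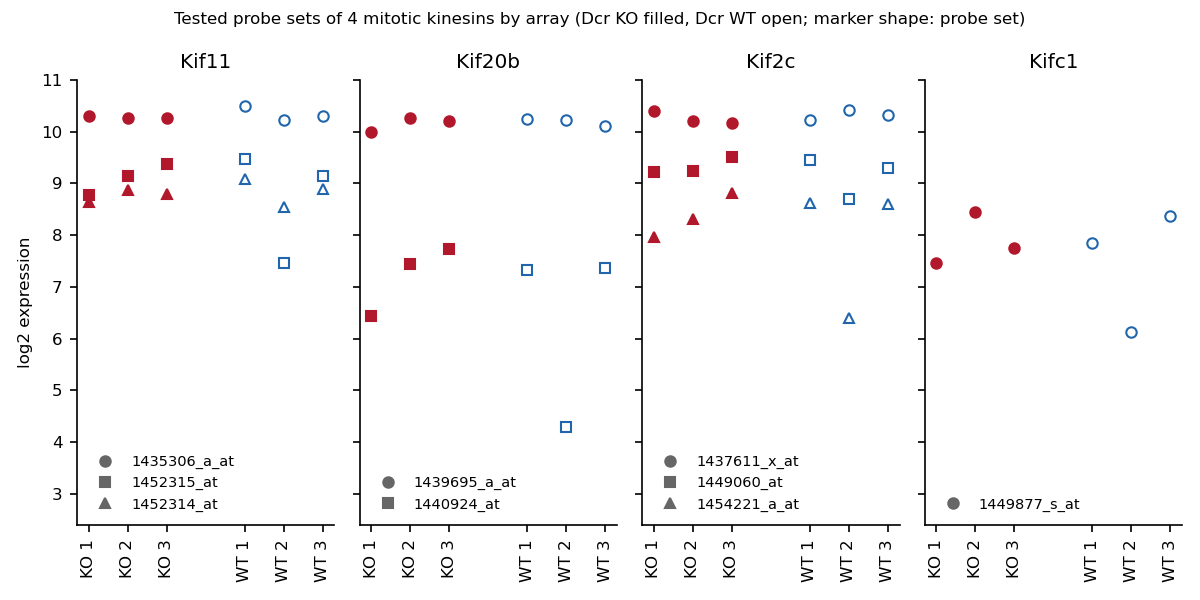
Log2 expression of each tested probe set of Kif11, Kif20b, Kif2c and Kifc1 on the 6 arrays (Dcr KO filled, Dcr WT open, marker shape for the probe set). On Dcr WT replicate 2 the probe sets 1452315_at, 1440924_at, 1454221_a_at and 1449877_s_at lie more than 1 log2 unit below every other array, while the brightest probe set of Kif11, Kif20b and Kif2c stays near the level of the other arrays.

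The list drawn up for proteins that work with the mitotic kinesins, which also holds Top2a and Mki67, had mostly negative differences. It includes Cenpe, itself a mitotic kinesin that the name rule leaves out, which differed by -0.21 (adjusted p = 0.360, limma). Of the 17 genes on the list, all of them tested, 1 fell (5.88%, against 6.42% of all genes) and 0 rose (6.91% of all genes). The share that fell was thus near that of all genes. In all, 14 differences were negative, with a median of -0.27. Their groups did not overlap for 7 that were lower (41.2%, against 21.2% of all genes) and 2 that were higher, Ect2 and Anln, both of cytokinesis (11.8%, against 17.7% of all genes). The gene that fell was Cdca8, which encodes borealin of the chromosomal passenger complex. It read 10.69, 10.76 and 10.50 in Dcr KO and 11.13, 11.09 and 11.09 in Dcr WT, so every Dcr KO array was lower, by 0.45 on average (SE 0.11, adjusted p = 0.0313, limma). The call was lost when any 1 of the 6 arrays was left out (adjusted p 0.0626 to 0.0820). Birc5, the survivin subunit of the same complex, differed by -0.28 (adjusted p = 0.0784) and Ckap5, a microtubule polymerase, by -0.34 (adjusted p = 0.0795), both with no overlap. Racgap1, the partner of Kif23 in centralspindlin, differed by -0.27 (adjusted p = 0.112), the opposite sign to Kif23. Mki67, a general marker of cycling cells on the same list, differed by -0.45 (adjusted p = 0.0831, limma). Top2a, a DNA topoisomerase on that list, differed by -0.27 (adjusted p = 0.0911, limma). Both count among the genes that were lower with no overlap. A part of cell cycle distribution in the differences of this list was not tested.

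Of the 10 transport kinesins tested, 1 rose (6.91% of all genes) and 0 fell (6.42% of all genes) in Dcr KO, with 8 of 10 differences above 0 and a median of 0.22. At an unadjusted p under 0.05, 4 were higher and 0 lower, against 14.7% and 17.3% of all genes. Groups did not overlap for Kif1b, Kif5b and Kif13a, all higher (30%, against 17.7% of all genes). Set against the Dcr WT mean, the median of the 10 genes was 0.20, 0.19 and 0.35 on the Dcr KO arrays, and it was 0.22 without Dcr WT replicate 2. With the median over a gene's probe sets it was also 0.22, over 9 genes. With the brightest probe set of each gene, which brought 13 transport kinesins above the minimum level, it was -0.09, and with all 16 included whatever their level it was -0.00042. The sign of the transport median thus depended on the genes and probe sets taken in, and no test was made between the transport and mitotic groups.

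Kif1b read 5.93, 5.92 and 6.14 in Dcr KO and 5.64, 5.62 and 5.47 in Dcr WT. All Dcr KO arrays were above all Dcr WT arrays, a difference of 0.42 (SE 0.11, 95% interval 0.17 to 0.67, adjusted p = 0.0409, limma) or 1.34-fold. The call was lost when any 1 array was left out (adjusted p 0.0696 to 0.108), with a difference of 0.35 to 0.46. Its 7 probe sets did not move together. The probe set 1455182_at read 8.09, 8.19 and 8.45 in Dcr KO and 7.04, 7.50 and 7.04 in Dcr WT, a 2.07-fold rise (adjusted p = 0.0205 over the 18789 probe sets tested, limma). The probe set 1425270_at read 7.59, 7.75 and 8.06 in Dcr KO and 6.82, 6.88 and 6.89 in Dcr WT, a 1.91-fold rise (adjusted p = 0.0171). On both, every Dcr KO array lay above every Dcr WT array. With 1 array left out the adjusted p was 0.0152 to 0.0783 for 1455182_at, under 0.05 only without Dcr WT replicate 2, and 0.0360 to 0.0726 for 1425270_at, above 0.05 without Dcr KO replicate 2, Dcr WT replicate 1 or Dcr WT replicate 3. In contrast, 1423994_at differed by -0.09 (interval -0.47 to 0.28, adjusted p = 0.725) and 1451200_at by -0.19 (interval -0.57 to 0.20, adjusted p = 0.487), with overlapping groups. The other 3 probe sets were dim, and 1 of them, 1451642_at, read 3.87, 4.24 and 5.18 in Dcr KO and 3.75, 3.10 and 3.25 in Dcr WT. Which transcripts of Kif1b each probe set reads was not settled here.

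Kif5b, the heavy chain of conventional kinesin found in most cells, had probe sets that all pointed one way. Its gene value was 9.78, 9.88 and 9.97 in Dcr KO and 9.61, 8.94 and 9.41 in Dcr WT, a difference of 0.56 (SE 0.17, interval 0.16 to 0.95) that did not pass (adjusted p = 0.0669, limma). The groups did not overlap, and without Dcr WT replicate 2 the difference was 0.37 (adjusted p = 0.100). All 6 probe sets were higher in Dcr KO, by 0.43 to 0.69. The brightest, 1418429_at, read 11.97, 11.79 and 11.73 in Dcr KO and 11.32, 11.25 and 11.23 in Dcr WT, a 1.48-fold rise (adjusted p = 0.0335 over probe sets, limma). That probe set did not depend on Dcr WT replicate 2 for its size, with 0.56 without it, although its call was lost when any 1 array was left out (adjusted p 0.0632 to 0.112). In all, 3 of the 60 kinesin probe sets tested rose (5.00%) and none fell, 2 of Kif1b and this one, against 7.75% of all probe sets called, 4.69% higher and 3.07% lower, and 16 of the 60 had groups that did not overlap (26.7%, against 35.7%).

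**Figure D4:**
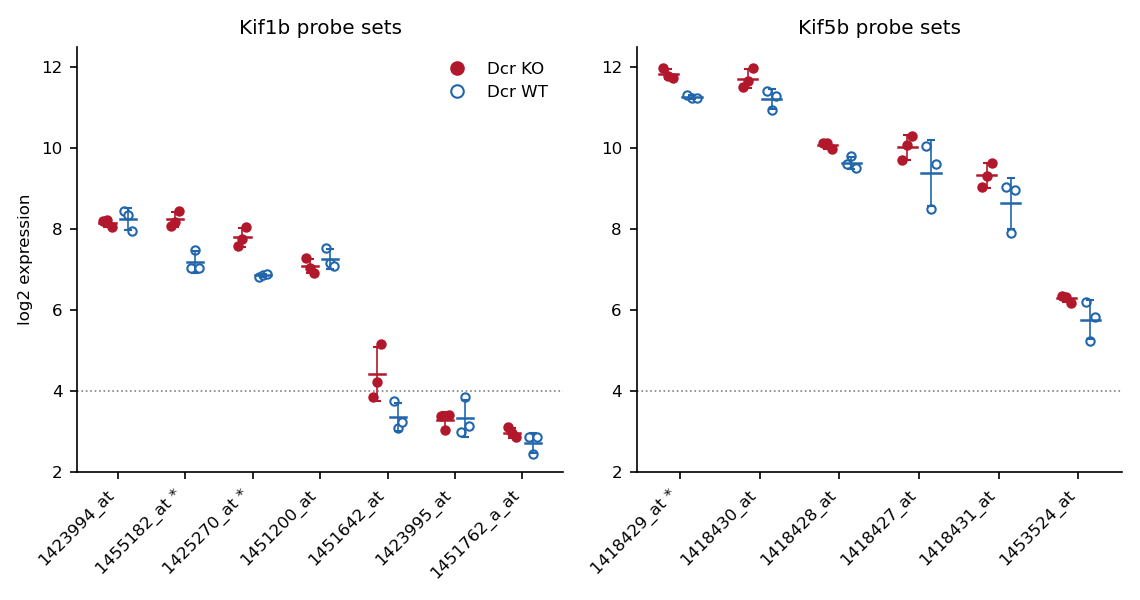
Log2 expression of the 7 probe sets of Kif1b and the 6 of Kif5b (Dcr KO filled, Dcr WT open, 3 arrays each, bars for mean and SD), ordered by brightness, with the minimum level of 4 dotted and an asterisk where the adjusted p was under 0.05 (limma, over probe sets). For Kif1b 2 of the 4 bright probe sets are higher in Dcr KO by 0.94 and 1.05 and the other 2 overlap, whereas all 6 of Kif5b are higher by 0.43 to 0.69.

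The other kinesins on the study's candidate list did not pass the test used here. The study asked instead for a rise of at least 1.2-fold in both the Dcr and the cluster knockout. On the gene values here Kif5c stood at 1.22-fold, Kif16b at 1.11-fold and Kif3a at 0.99-fold. These gene values average in dim probe sets, and single probe sets can stand on the other side of that cut-off. For Kif16b, 1429062_at stood at 1.29-fold and 1429063_s_at at 1.28-fold. For Kif3a, 1455652_at stood at 1.21-fold with overlapping groups, 1420375_at at 0.92-fold and 1449841_at at 0.93-fold. The study's list was built in part from rises on these same arrays, so it is not independent evidence of a direction. Of its 4 kinesins 1 rose and 0 fell in the test used here. Dync1li2, Ect2 and Ncam1, which are named elsewhere in the text, stand on the same list. Kif16b, which holds early endosomes through a lipid-binding domain, read 5.98, 5.79 and 5.64 in Dcr KO and 5.73, 5.66 and 5.55 in Dcr WT, overlapping groups with a difference of 0.16 (SE 0.12, adjusted p = 0.393, limma). Both of its probe sets above the minimum level were separated between groups, with 1429062_at at 0.37 (adjusted p = 0.117) and 1429063_s_at at 0.36 (adjusted p = 0.199). Kif3a, a subunit of the heterotrimeric kinesin-2 that builds cilia, read 5.77, 5.77 and 5.62 in Dcr KO and 5.81, 5.83 and 5.56 in Dcr WT, a difference of -0.01 (interval -0.27 to 0.25, adjusted p = 0.947, limma). All Dcr KO arrays lay within the Dcr WT range. Kif5c, a heavy chain of conventional kinesin enriched in neurons, read 4.07, 4.29 and 4.65 in Dcr KO and 4.21, 4.07 and 3.86 in Dcr WT, a difference of 0.29 (SE 0.17, adjusted p = 0.271, limma). Only 1 of its 4 probe sets, 1455266_at, was bright enough to test, and it differed by 0.42 (adjusted p = 0.186).

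Kifc3, a minus-end motor of cell junctions and the Golgi, had the largest difference of all kinesins, on the 1 probe set that reads it. It read 6.14, 5.87 and 5.64 in Dcr KO and 5.00, 5.73 and 5.03 in Dcr WT, a difference of 0.63 (SE 0.22, interval 0.13 to 1.13, adjusted p = 0.0925, limma). Here Dcr WT replicate 2 was the highest Dcr WT array and lay inside the Dcr KO range, and without it the difference was 0.87 (adjusted p = 0.0281). Kif13a, which carries vesicles from the trans-Golgi network, differed by 0.29 with no overlap (adjusted p = 0.0844), and its 3 tested probe sets by 0.02 to 0.33. Kif1a, a carrier of synaptic vesicle precursors in neurons, had the lowest value of the group, -0.27 (adjusted p = 0.455). Kif3b and Kif3c, the alternative partners of Kif3a, differed by 0.15 and 0.00. Kif1c, Kif5a, Kif13b, Kif17, Kif28 and Kifc2 were below the minimum level. Among these, Kif13b and Kifc2 had mean log2 levels of 2.82 and 3.14 in Dcr KO and 2.96 and 3.52 in Dcr WT, with no overlap. Single probe sets of Kif13b, Kif1c and Kif5a nevertheless reached the minimum level, each with overlapping groups. For Kif13b, 1436056_at differed by -0.32 (adjusted p = 0.407 over probe sets, limma). For Kif1c, 1424746_at differed by -0.26 (adjusted p = 0.387), and for Kif5a, 1434670_at by -0.17 (adjusted p = 0.774).

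Kinesins of cilia and microtubule length held the lowest value, that of Kif7, which 1 probe set reads. Kif7, a regulator of Hedgehog signaling at the tip of the cilium, read 4.56, 4.82 and 4.62 in Dcr KO and 4.83, 5.46 and 5.39 in Dcr WT. The groups were apart by 0.01 at the closest, and the difference of -0.56 (SE 0.18, interval -0.97 to -0.15) did not pass (adjusted p = 0.0734, limma), though it was -0.76 (adjusted p = 0.0276) without Dcr WT replicate 1. Kif2a, a motor that shortens microtubules, differed by 0.15 (adjusted p = 0.475) and Kif21a, which slows microtubule growth, by -0.08 (adjusted p = 0.758). Kif6, Kif9, Kif21b, Kif24 and Kif27 were below the minimum level as genes. The probe set 1435772_at of Kif21b nevertheless reached it, at 4.85, 4.64 and 3.80 in Dcr KO and 5.29, 5.93 and 5.14 in Dcr WT, a difference of -1.02 with separate groups (adjusted p = 0.0988 over probe sets, limma). A probe set of Kif24, 1457074_at, differed by -0.50 with separate groups (adjusted p = 0.159). Kif12, Kif26a and Kif26b had mean log2 levels of 1.92 to 3.62 in Dcr KO and 1.86 to 3.85 in Dcr WT, below the minimum, and were not tested.

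The accessory proteins differed little. Kifap3, which joins Kif3a and Kif3b to cargo, read 8.71, 8.46 and 8.66 in Dcr KO and 8.35, 8.63 and 8.42 in Dcr WT, an overlapping difference of 0.14 (SE 0.12, interval -0.13 to 0.42, adjusted p = 0.441, limma). Kifbp, which binds and restrains several kinesin motor domains, differed by 0.12 (adjusted p = 0.455), with the groups just separate.

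The cargo side of kinesin transport was read from 14 light chains and adaptors, 10 of them tested, of which 2 rose (6.91% of all genes) and 1 fell (6.42% of all genes). Their median difference was -0.04, and 40% had groups that did not overlap, against 39.0% of all genes. Trak2, an adaptor that links kinesin and dynein to mitochondria, read 4.77, 4.83 and 4.96 in Dcr KO and 4.30, 4.36 and 4.32 in Dcr WT, separate groups with a difference of 0.53 (SE 0.10, adjusted p = 0.0160, limma). Only 1435016_at of its 2 probe sets was bright enough to test, at 0.76 (adjusted p = 0.0128 over probe sets). Klc1, a light chain of conventional kinesin, read 6.51, 6.53 and 6.89 in Dcr KO and 6.16, 5.82 and 6.08 in Dcr WT, a difference of 0.62 (SE 0.14, adjusted p = 0.0313, limma). Its groups were separate, but 1448541_at differed by 1.46, with a Dcr WT replicate 2 value of 3.10, while the brightest probe set differed by 0.04, and without that array the gene's adjusted p was 0.0750. The call was also lost without Dcr KO replicate 2, Dcr KO replicate 3 or Dcr WT replicate 3 (adjusted p 0.0677 to 0.0836). Klc3, a light chain best known from sperm, read 7.68, 7.49 and 6.99 in Dcr KO and 8.04, 8.14 and 8.48 in Dcr WT, a fall of all Dcr KO arrays below Dcr WT with a difference of -0.83 (SE 0.20, adjusted p = 0.0325, limma). The call for Klc3 was lost without any 1 of the 3 Dcr WT arrays or without Dcr KO replicate 2 or 3 (adjusted p 0.0535 to 0.104), and that for Trak2 without Dcr KO replicate 2 (0.0618) and also when Dcr WT replicate 3 was left out (0.0501).

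Cytoplasmic dynein, which walks in the opposite direction to most kinesins, and its cofactor dynactin had 1 gene that rose and 0 that fell among 18 tested of 19 measured (5.56% called, against 13.3% of all genes). The median was 0.09. Dync1li2, a light intermediate chain that ties dynein to its adaptors, read 6.78, 6.80 and 7.13 in Dcr KO and 5.96, 6.21 and 5.99 in Dcr WT. Every Dcr KO array was higher, with a difference of 0.85 (SE 0.13, 1.80-fold, adjusted p = 0.00992, limma), and the gene stayed past the threshold without any 1 array (adjusted p 0.0177 to 0.0424). Both of its probe sets rose, by 1.57-fold on 1433925_at (adjusted p = 0.0376) and 2.07-fold on 1433926_at (adjusted p = 0.0211). Dync1li2 stands on the study's candidate list, which was built in part from rises on these same arrays, so the list is not independent evidence of this rise. Dctn4 of dynactin differed by 0.65 (adjusted p = 0.0597) and Nde1, a dynein regulator of mitosis, by -0.37 (adjusted p = 0.0613), both with separate groups.

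**Figure D5:**
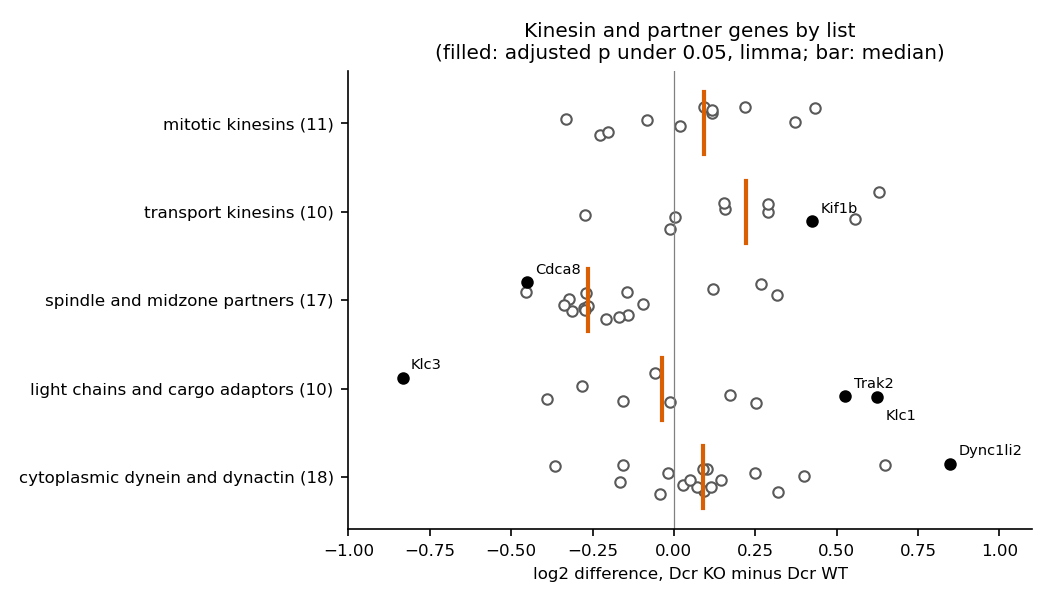
Difference in log2 level (Dcr KO minus Dcr WT) for each tested gene of the mitotic and transport kinesins and of 3 partner lists, with the number tested in brackets, filled points for an adjusted p under 0.05 (limma) and bars for the median; height within a row has no meaning. Medians are 0.09 for mitotic and 0.22 for transport kinesins, -0.27 for spindle and midzone partners, -0.04 for light chains and adaptors and 0.09 for dynein and dynactin, and 6 genes are filled.

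Probe sets of one kinesin gene often gave unlike differences. Of 15 kinesins with more than 1 tested probe set, 6 had differences of both signs (Kif11, Kif1a, Kif1b, Kif20b, Kif2c and Kif3a). The widest span was that of Kif1b, from -0.19 to 1.05. The narrowest were those of Kif16b (0.36 to 0.37), Kifap3 (0.09 to 0.20) and Kif22 (-0.15 to -0.03). Among the 17 kinesins below the minimum level, 5 had a tested probe set, and the highest mean log2 level of such a gene was 3.86, while the lowest of a tested one was 4.19. No kinesin was tested through a high level in one group alone.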

How the data were processed

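RNA of mouse ES cells was hybridised to oligonucleotide arrays, 3 for Dcr KO and 3 for Dcr WT. The authors deposited 45037 probe set values per array on the log2 scale, made with GCRMA 2.20.0 and R 2.11.1 according to the submitters' notes on processing. A supplementary legend of the study says that these samples and the chronic deletion samples were normalized jointly for the plot it describes. Not given in the sources used here are whether the deposited values come from that normalization and a genome build for the probes, and either could change the values by an amount not tested. No column was left unused (0).

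Gene names came from the platform annotation: 34945 probe sets had 1 symbol, 932 several and 9160 none, and probe sets of the last 2 kinds were left out of gene values. Entrez IDs of 34741 were found in RefSeq (GRCm38.p6), which changed 0 symbols. Gene values are means of log2 values, a geometric mean. Genes and probe sets whose mean reached 4 (16 on the linear scale) were fitted in limma 3.58.1 under R 4.3.3 (lmFit, then eBayes), with Benjamini-Hochberg adjustment. Single genes rest on this model, since the smallest two-sided p of a permutation test of 3 arrays against 3 is 0.1. The number of arrays limits the precision. The fit was also run on simulated data with known changes, and the outcome of that run is not reported here. Tables, motifs and figures used Python 3.11.15, pandas 2.3.3, numpy 2.4.6 and matplotlib 3.10.9.

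Values on every array are given for kinesins past the threshold, the 4 on the study's candidate list, the 4 highest in mean level of the mitotic and of the transport group, and the largest absolute difference of each role, with up to 3 genes of smallest adjusted p per partner list. Others named were chosen after their values were seen. The members and lists were chosen with earlier results of these data known. The role and partner lists come from general knowledge, and the light chain and adaptor list holds 17 genes, 14 of them measured. Alternatives were a replicate block, other level minima, the brightest or the median probe set, array shifts, quantile normalization, an intensity trend with robust variance, and leaving out each array. The chronic deletion lines and the arrays of the cluster knockout were not analysed here.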

Additional observations from a re-analysis of the deposited data

How the results depend on the processing

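Among values that answer a comparison, 186 were the same under the alternatives and 52 moved. With each array left out in turn, counts of genes called ranged from 0 to 1 for kinesins and for transport kinesins that were higher (Kif5b without Dcr WT replicate 1, Kifc3 without Dcr WT replicate 2), from 0 to 1 for kinesins that were lower (Kif7 without Dcr WT replicate 1), from 0 to 3 for kinesin probe sets that were higher, from 0 to 2 for light chains and adaptors that were higher and from 0 to 1 for those that were lower. The spindle and midzone partners that were lower numbered 0 in each of the 6 fits. The median difference ranged from -0.13 to 0.17 for mitotic kinesins, negative without Dcr WT replicate 2, and from 0.18 to 0.28 for transport kinesins.

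The labels number the replicates in both groups, but residuals of same-numbered arrays correlated at -0.22, -0.02 and 0.03, so the numbers were not taken as pairs. With the replicate number as a block, 354 genes rose and 243 fell, against 607 and 564 without it. Kinesin genes and transport kinesins that were higher then numbered 0 and kinesin probe sets 0. Light chains and adaptors numbered 1 higher and 0 lower, spindle partners 0 lower, and dynein genes 2 higher, with Dctn4 as the added gene (adjusted p = 0.0467, limma).

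At a minimum mean of 6, which leaves Kif5b as the 1 transport kinesin tested, 0 kinesins and 0 transport kinesins were higher, with 1 light chain or adaptor, and the transport value of 0.56 is that of Kif5b (0.37 without Dcr WT replicate 2). With no minimum the transport median was -0.00042. By the brightest probe set the called kinesin was Kif5b (0.56, adjusted p = 0.0168, limma) in place of Kif1b, 1 light chain or adaptor was higher and 2 spindle partners were lower, with medians of -0.04 for mitotic and -0.093 for transport kinesins. By the median of probe sets, 1 mitotic kinesin (Kif23), 0 transport kinesins and 1 light chain or adaptor were higher. An intensity trend with robust variance called 5 kinesin probe sets higher, 2 spindle partners lower and 1 dynein gene lower (Nde1). The causes were not tested.

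Single genes were compared under every alternative for a named set, which left out other kinesins, among them Kif20b and Kif2c. Both of these also changed sign without Dcr WT replicate 2, to -0.02 and -0.13. Within the named set, 9 values changed sign. These were Kif11 (-0.057 by the brightest probe set, -0.18 without Dcr WT replicate 2), Kif1b by the brightest probe set (-0.093), Kif20a (-0.063) and Kifc1 (-0.23) without Dcr WT replicate 2, and Kif3a (0.083 by the median of probe sets, 0.037 without Dcr KO replicate 3, 0.025 without Dcr WT replicate 1 and 0.034 without Dcr WT replicate 2). Over the 6 fits that left out 1 array, these genes ranged from -0.18 to 0.29 (Kif11), from -0.063 to 0.072 (Kif20a), from -0.099 to 0.037 (Kif3a) and from -0.23 to 0.90 (Kifc1). A further 48 values kept their direction and lost the call, and 7 gained it. Dim probe sets limit what can be said of the 17 kinesins below the minimum level.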
